A study of Mus musculus with 16 samples.

Results

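Alveolar macrophages (AMs) sorted as negative for p16 protein were compared after chronic inhalation of lipopolysaccharide (LPS) and after inhalation of the PBS vehicle. The p16-negative fraction gave 8 of the 16 libraries of the series, 4 per treatment, and 3829 of the 7946 listed genes had at least 30 unique molecular identifiers (UMIs, each counting 1 captured transcript) summed over these 8 libraries and were tested. All mice were female C57BL/6 animals, which breathed either an aerosol of E. coli LPS in PBS (0.5 mg/ml) or PBS alone for 30 min, 3 times a week, over 10 weeks. No source used here ties an age, or a single animal, to a library. Lung cells bearing the leukocyte antigen CD45 together with CD11c and Siglec-F were methanol-fixed and sorted by intracellular p16 stain, with 5000 cells per library, and the labels describe the libraries as pooled. By replicate number, library depth was 100960, 139976, 166495 and 401857 UMIs after LPS, against 15755, 60814, 117352 and 224301 UMIs after PBS.

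AMs are the resident phagocytes of the air spaces, where they clear surfactant lipid, particles and bacteria. LPS, a lipid of the outer membrane of Gram-negative bacteria, is recognised by CD14 and the TLR4 receptor complex, which signals through IRAK kinases to NF-kB and induces cytokines, chemokines and secreted defence proteins. The p16 protein, encoded by Cdkn2a, inhibits CDK4 and CDK6 and marks many senescent cells, and the p16-negative fraction holds the AMs sorted for a low stain of it. The comparison asks what repeated LPS inhalation leaves in these cells.

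The cells were checked against AM markers. Of 38 AM genes on the list, 32 were in the table and 27 were tested, and together they took 1.04 to 1.94% of UMIs in LPS libraries and 0.819 to 1.78% in PBS libraries. The chitinase-like gene Chil3 was at 1265 ± 729 CPM (UMI counts scaled to the library total) in LPS libraries and 1263 ± 745 CPM in PBS libraries (SD, n = 4 each), with a caution that its close paralogs can share reads. The sort antigens were sparse as transcripts, with 13 UMIs of Siglecf in all LPS libraries and 5 in all PBS libraries, and 14 against 11 UMIs of Ptprc, which encodes CD45. Cdkn2a had 9 UMIs in LPS libraries and 8 in PBS libraries, too few to test. Its level was 0 to 42.9 CPM (LPS) and 0 to 25.6 CPM (PBS) in p16-negative libraries, against 0 to 25.5 CPM (LPS) and 0 to 20.7 CPM (PBS) in p16-positive libraries, so that at this depth the transcript did not separate the fractions that the protein stain defines. Tlr4 was not analysed here.

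PBS replicate 1 stood apart from the other libraries. It was the shallowest, secretory airway cell genes took 18.5% of its UMIs, and on the first principal component of log2(CPM + 20) it lay at -84.2 while the other libraries lay between 0.545 and 22.5. A count of 0 in this library allows a level of up to 190 CPM (the level of 3 UMIs), against 7.47 to 29.7 CPM in the LPS libraries and 13.4 to 49.3 CPM in the other PBS libraries. Values without it are given for the 7 called genes and, as for any other library, where leaving it out moved the count of a described list by over 1.5 times.

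Chronic LPS changed 7 genes in p16-negative AMs at an adjusted p under 0.05, 0.183% of the 3829 tested (edgeR quasi-likelihood test with Benjamini-Hochberg adjustment, 4 libraries per treatment). Of these, 5 were higher after LPS (0.131%). They were Saa3, an acute-phase protein of mice that macrophages make outside the liver, Mmp14, a membrane-bound matrix metalloprotease, Stac2, an adaptor that binds voltage-gated calcium channels, Fam20c, a Golgi kinase of secreted proteins, and Vsig8, a membrane protein of the immunoglobulin superfamily. The 2 genes that fell (0.0522%) were Gpx3, a secreted glutathione peroxidase that detoxifies hydroperoxides, and Egfl7, a secreted factor known from endothelial cells. Leaving out PBS replicate 1 ended all 7 calls, with 0 genes past the threshold and 169 of 3781 at an unadjusted p under 0.05, whereas the fold changes of the 7 genes moved little, as given for each gene. In bulk libraries, fewer cells of a type and less RNA per cell cannot be told apart.

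**Figure D1:**
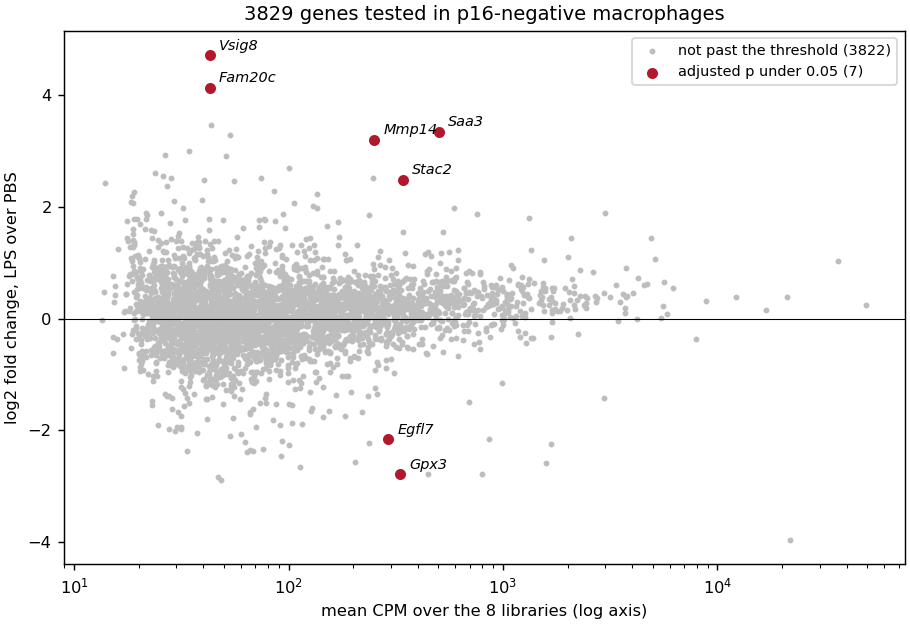
Log2 fold change of LPS over PBS (vertical axis) against the mean CPM over the 8 p16-negative libraries (horizontal log axis) for the 3829 tested genes, 1 point per gene. The 7 genes with an adjusted p under 0.05 are red and named, and they range from 4.71 for Vsig8 to -2.79 for Gpx3.

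No other gene passed the threshold, which with 4 libraries per treatment does not show that the other differences were small. Single log2 fold changes ran from -3.96 to 4.71, and rises and falls cancel in a median. The median log2 fold change over all tested genes was 0.11, with 2231 positive and 1598 negative values, and it was -0.03 with upper-quartile scaling and -0.04 with library totals, so that list medians are to be read against this shift. At an unadjusted p under 0.05 there were 193 genes (5.04%), of which 123 genes were higher (3.21% of all tested) and 70 were lower (1.83%) after LPS. All 4 LPS libraries lay above all 4 PBS libraries in CPM for 49 genes (1.28%) and below them for 62 (1.62%).

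The sequences before the annotated starts of Saa3 and Mmp14 are shown because these are the rise with an acute-phase role and the rise with the lowest p. Both windows run from 250 bases before to 50 bases after an annotated start in RefSeq on GRCm38.p6. The Saa3 window is chr7:46715627-46715926 on the minus strand, and the Mmp14 window is chr14:54431348-54431647 on the plus strand. The Saa3 start used lies inside the span of the gene given below, away from its outer end at 46719615. The Mmp14 start lies at the end of its gene, at 54431598. Capitals in the Saa3 window mark matches to 2 motifs on the opposite strand, the NF-kB motif GGNNTTTCC from position -187 and the C/EBP motif TTGCNNAA from position -99 relative to the start.
Saa3: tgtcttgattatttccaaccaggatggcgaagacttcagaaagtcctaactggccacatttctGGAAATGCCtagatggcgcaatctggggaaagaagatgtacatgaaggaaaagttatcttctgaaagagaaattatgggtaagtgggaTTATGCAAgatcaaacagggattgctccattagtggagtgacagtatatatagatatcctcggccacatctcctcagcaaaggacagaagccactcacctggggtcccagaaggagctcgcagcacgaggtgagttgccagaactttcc
Mmp14: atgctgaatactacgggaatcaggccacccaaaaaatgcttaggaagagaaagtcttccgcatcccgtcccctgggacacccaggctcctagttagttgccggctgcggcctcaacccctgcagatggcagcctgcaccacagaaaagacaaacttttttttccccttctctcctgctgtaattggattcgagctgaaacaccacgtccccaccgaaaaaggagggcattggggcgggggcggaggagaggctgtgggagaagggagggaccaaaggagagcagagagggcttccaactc
Both strands were searched for these motifs and for the AP-1 motif TGANTCA. Of the 7 called genes, 6 had an entry (all but Stac2), with 9 windows. The C/EBP motif matched in 1 of these genes (Saa3), the NF-kB motif in 2 (Saa3, and 1 of the 3 windows of Egfl7, from position -57) and the AP-1 motif in 0. The NF-kB motif was first searched in a longer form with 1 more G in front, which matched in 0 of these genes, and the shorter form was taken after that result was seen, for a reason of format only. Over all 32851 promoter windows of the same length, 10.8% held the C/EBP motif, 5.82% the NF-kB motif, 1.63% its longer form and 7.81% the AP-1 motif. A match is a match of letters, and binding was not measured.

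Saa3 had 198, 522, 330.3 and 2643 CPM in LPS libraries, against 0, 148, 136 and 44.6 CPM in PBS libraries. Every LPS library was above every PBS library, and LPS replicate 4 was far above the other LPS libraries. The log2 fold change was 3.34 (SE 0.64, adjusted p = 0.0181), from 1210 UMIs in LPS and 35 in PBS libraries. Without LPS replicate 4 it was 2.11 (adjusted p = 0.211), and without PBS replicate 1 it was 3.20 (adjusted p = 0.148). The call was also lost with DESeq2 (adjusted p = 0.0889), voom (0.152), the robust edgeR fit (0.313), filterByExpr (0.0979) and all 16 libraries (0.14). The gene lies on chromosome 7 (46711998 to 46719615, minus strand, GRCm38.p6).

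Mmp14, which activates other metalloproteases and cleaves collagen at the cell surface, had 584, 522, 360.4 and 341 CPM in LPS libraries, against 0, 115, 68.2 and 22.3 CPM in PBS libraries. The groups did not overlap, and the lowest LPS library was also above the 190 CPM that the count of 0 in PBS replicate 1 allows. Its log2 fold change was 3.20 (SE 0.54, adjusted p = 0.00445), a 9.20-fold higher level. Without PBS replicate 1 the value was 3.09 (adjusted p = 0.0516), and the call held when any of the other 7 libraries was left out. Mmp14 was the only one of the 7 genes called with each scaling, filter and tool run on the full set of libraries, and with all 16 libraries. Mmp14 lies on chromosome 14 (54431598 to 54442456, plus strand).

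Stac2 had 634, 772, 619 and 306 CPM in LPS libraries, against 0, 148, 162 and 93.6 CPM in PBS libraries. Here too the groups were apart, with LPS replicate 4 the lowest of its group. The log2 fold change was 2.49 (SE 0.49, adjusted p = 0.0196), and it was 2.34 (adjusted p = 0.118) without PBS replicate 1, the only library of the 8 whose removal ended the call. The call was also lost with filterByExpr (adjusted p = 0.0817) and all 16 libraries (0.14). Stac2 lies on chromosome 11 (98036623 to 98053462, minus strand).

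Fam20c and Vsig8 had very few UMIs in PBS libraries. Fam20c had 59.4, 129, 18.0 and 129 CPM in LPS libraries, against 0, 0, 0 and 8.92 CPM in PBS libraries. The 79 UMIs in LPS and 2 in PBS libraries give a pooled ratio of 20.4 with a counting interval of 5.47 to 172 (95%, counting error only). Vsig8 had 178, 21.4, 54.1 and 72.2 CPM in LPS libraries, against 0, 16.4, 0 and 0 CPM in PBS libraries. Its 59 and 1 UMIs give a ratio of 30.5 (5.26 to 1224). Neither gene overlapped between groups, but all 4 LPS values of both genes lie under the 190 CPM that a count of 0 in PBS replicate 1 allows. The fitted log2 fold changes, which depend on the prior count, were 4.14 (SE 0.89, adjusted p = 0.0419) for Fam20c and 4.71 (SE 1.05, adjusted p = 0.0495) for Vsig8.

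Several single libraries decided these 2 calls. Fam20c had an adjusted p of 0.0552 without LPS replicate 2, 0.148 without PBS replicate 1 (fitted value 4.10), 0.0655 without PBS replicate 2 and 0.0898 without PBS replicate 3, it had under 30 UMIs without LPS replicate 4, and its fitted value was 6.66 without PBS replicate 4. Vsig8 had 0.0633 and 0.208 without LPS replicates 3 and 4, 0.148, 0.0983 and 0.221 without PBS replicates 1, 3 and 4, and its fitted value was 4.70 without PBS replicate 1 and 6.82 without PBS replicate 2. Neither call held with upper-quartile scaling, library totals, DESeq2, voom or all 16 libraries. The call of Vsig8 was also lost with relative log expression (RLE) scaling, and neither gene was tested with filterByExpr. Fam20c lies on chromosome 5 (138755081 to 138810063), and Vsig8 on chromosome 1 (172555938 to 172563717), where 4933439K11Rik overlaps it on the opposite strand. No source used here says whether the counting used strand, so reads of these neighbours cannot be told apart.

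Gpx3 had 109, 92.9, 60.1 and 39.8 CPM in LPS libraries, against 698, 1217, 76.7 and 366 CPM in PBS libraries. The groups overlapped, because PBS replicate 3 lay within the LPS range. The log2 fold change was -2.79 (SE 0.58, adjusted p = 0.0306), and without PBS replicate 2, the highest library, it was -1.93 (adjusted p = 0.244). The adjusted p was also over the threshold without LPS replicate 3 (0.0653), LPS replicate 4 (0.262) or PBS replicate 1 (0.148, with a value of -2.73), with voom (0.735), the robust edgeR fit (0.126), filterByExpr (0.092) and all 16 libraries (0.442). The part of other lung cells in the value of Gpx3 was not tested. Gpx3 lies on chromosome 11 (54902854 to 54910387, plus strand).

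Egfl7 had 89.1, 136, 90.1 and 62.2 CPM in LPS libraries, against 571, 822, 239 and 321 CPM in PBS libraries. The highest LPS library lay below the lowest PBS library. The log2 fold change was -2.15 (SE 0.47, adjusted p = 0.0427), a level 4.45-fold lower after LPS. It was -1.66 (adjusted p = 0.281) without PBS replicate 2, and its adjusted p was 0.0633 without LPS replicate 3, 0.211 without LPS replicate 4 and 0.148 without PBS replicate 1 (value -2.11). The call was lost with voom (0.186), filterByExpr (0.0817) and all 16 libraries (0.525). The gene lies on chromosome 2 (26581083 to 26592682, plus strand) and hosts the microRNA gene Mir126a, while the gene model Gm20532 shares its strand and Mir126b lies on the other, so their reads could be counted together.

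**Figure D2:**
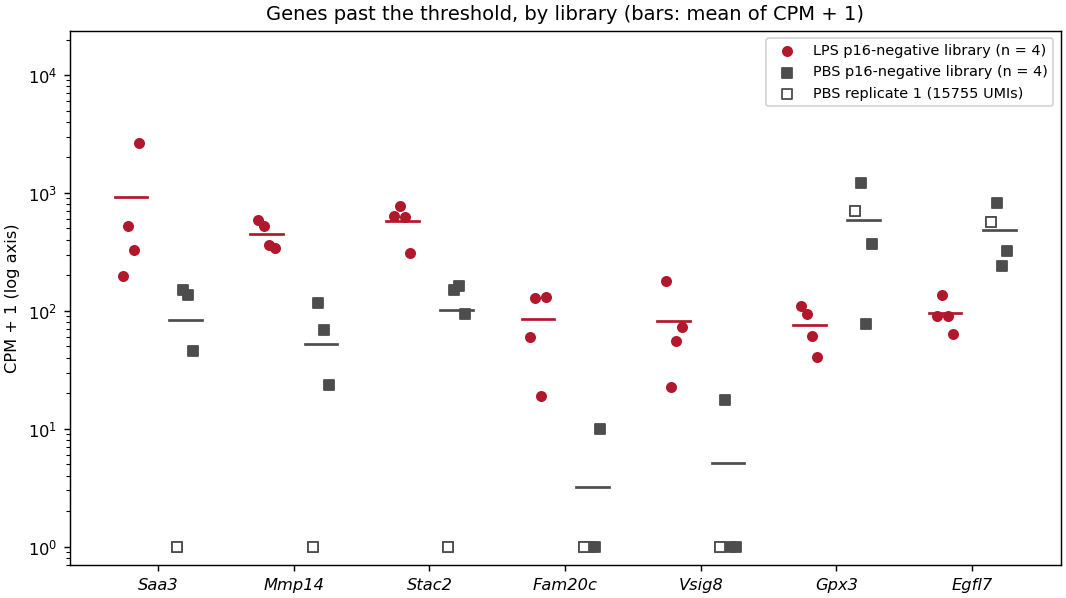
CPM + 1 (log axis) of the 7 genes past the threshold in the 4 LPS (red circles) and 4 PBS (grey squares) p16-negative libraries, with the mean of each group as a bar and PBS replicate 1 as an open square. The 5 genes on the left are higher in every LPS library than in every PBS library, Gpx3 overlaps through PBS replicate 3 at 76.7 CPM, and the open squares of the first 5 genes stand for counts of 0.

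Next in order of p after the 5 called rises came 3 genes that did not pass. Crip1, a small LIM-domain protein abundant in immune cells, had 3526, 6701, 4775 and 3310.0 CPM in LPS libraries, against 825, 1825, 1423 and 1476 CPM in PBS libraries. The groups did not overlap, and the log2 fold change was 1.89 (SE 0.45, adjusted p = 0.0659). Crip1 passed the threshold with DESeq2, with voom and with the robust setting of edgeR. Micall2, a binding partner of Rab proteins in membrane recycling, was at 80.5 ± 40.4 CPM in LPS and 6.34 ± 7.94 CPM in PBS libraries (log2 fold change 3.47, adjusted p = 0.0659). Palm, the membrane protein paralemmin, was at 131 ± 49.4 CPM in LPS and 18.3 ± 13.6 CPM in PBS libraries (2.51, adjusted p = 0.0659; SD, n = 4 each).

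Among genes with lower values, Gal, the neuropeptide galanin, was at 9.77 ± 8.37 CPM in LPS and 87.4 ± 65.4 CPM in PBS libraries (-2.89, adjusted p = 0.0659). Trp53i11, a p53-inducible gene, was at 9.83 ± 7.28 CPM in LPS and 83.9 ± 43.6 CPM in PBS libraries without overlap (-2.84, adjusted p = 0.0665). Acaa1b, a thiolase of peroxisomal fatty acid oxidation, was at 92.5 ± 30.4 CPM in LPS and 345 ± 67.9 CPM in PBS libraries (SD, n = 4 each), again without overlap (-1.68, adjusted p = 0.0971). None of these genes passed the threshold, and their values hold without PBS replicate 1, at -3.06 for Gal, -2.90 for Trp53i11 and -1.61 for Acaa1b. The values of Epas1, the hypoxia-inducible factor HIF-2alpha, and of Scgb1a1, the club cell secretoglobin, do not hold in this way. Epas1 was at -2.78 (adjusted p = 0.0665), with 42.0 to 149 CPM in LPS libraries against 102 to 2539 CPM in PBS libraries, and at -1.30 without PBS replicate 1. Scgb1a1 was at -3.96 (adjusted p = 0.0835) and at -0.76 (adjusted p = 1.00) without that library, which held 152500 CPM of it.

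Members of gene lists are given by their counts at an unadjusted p under 0.05, because no list had more than 1 called member. The lists were chosen with earlier results of these data known, many genes stand on several lists, and no list was tested as a set.

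Complement genes had higher values after LPS. Of 11 tested members, 0 were called (edgeR; 0 with DESeq2 and voom as well), 5 were higher and 0 lower at an unadjusted p under 0.05, where 3.21% of all genes were higher, and the median was 1.06 beside 0.11 for all genes. C1qa, a chain of the C1q complex that starts the classical pathway, had 555, 1386, 222 and 1627 CPM in LPS libraries, against 63.5, 329, 349 and 192 CPM in PBS libraries. LPS replicates 2 and 4 were high and LPS replicate 3 lay within the PBS range (log2 fold change 1.98, SE 0.50, adjusted p = 0.0835). The other C1q chains had values of 2.29 for C1qb (adjusted p = 0.230) and 1.77 for C1qc (adjusted p = 0.526), with the same 2 LPS libraries highest. Cfb, factor B of the alternative pathway, was at 514 ± 380.2 CPM in LPS and 169 ± 76.6 CPM in PBS libraries (1.55, adjusted p = 0.256; SD, n = 4 each). Without PBS replicate 1 the median was 1.01, and again 5 members were higher. C1qa passed the threshold with the robust edgeR fit, without a low-count filter, under the replicate block and without LPS replicate 1 or 3, and C1qb and Cfb passed it without LPS replicate 1.

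Most chemokines (10 of 12 tested) and most acute-phase and defence proteins (11 of 13 tested) had positive values, with 2 negative in each list. Among all 3829 genes 2231 were positive. Of 26 listed chemokines 16 were in the table, and Ccl2, Cxcl1 and Cxcl5 were among those not analysed here. Of 12 tested chemokines, 3 were higher and 1 was lower at an unadjusted p under 0.05 (median 0.93). With 1 library left out 2 to 5 were higher (5 without PBS replicate 2) and 0 to 2 lower (0 without LPS replicate 4 or PBS replicate 4, 2 without LPS replicate 1). Pf4, platelet factor 4, a chemokine that macrophages also express, had 109, 707, 150.2 and 744 CPM in LPS libraries, against 0, 82.2, 170.4 and 22.3 CPM in PBS libraries (2.52, adjusted p = 0.0665). LPS replicates 2 and 4 were again the highest, the groups overlapped, and without PBS replicate 3 the value was 3.62 (adjusted p = 0.00407). Cxcl16, a chemokine and scavenger receptor, was at 1.98 (adjusted p = 0.319). It was at 1.32 without PBS replicate 4, 1.35 without LPS replicate 4 and 2.84 without PBS replicate 2, and it passed the threshold without LPS replicate 1 (2.24, adjusted p = 0.0491). Ccl9 was at 1.43 (adjusted p = 0.534), and Ccl22, which attracts regulatory T cells, at -1.95 (adjusted p = 0.534). Of 13 tested acute-phase and defence proteins, Saa3 rose, 4 including it were higher and 1 was lower at an unadjusted p under 0.05 (median 0.58). Only 2 were higher without LPS replicate 2, LPS replicate 4 or PBS replicate 1, and 0 to 2 were lower (0 without LPS replicate 4, PBS replicate 2 or PBS replicate 4, 2 without LPS replicate 1, LPS replicate 2 or PBS replicate 3). Lcn2, lipocalin 2, which withholds iron from bacteria, had 129, 257, 114 and 356 CPM in LPS libraries, against 63.5, 98.7, 8.52 and 53.5 CPM in PBS libraries. These groups did not overlap (2.24, SE 0.56, adjusted p = 0.0835). The protease inhibitor Slpi was at 1.05 (adjusted p = 0.722), and Retnla, a marker of alternative activation, at -2.33 (adjusted p = 0.417).

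The markers of interstitial macrophages and monocytes include C1qa, C1qb, C1qc, Pf4 and Apoe. Of 27 listed, 15 were in the table, each with at least 1 UMI, and their sum was 0.136 to 0.547% of UMIs in LPS libraries and 0.125 to 0.227% in PBS libraries. The 2 highest sums were those of LPS replicates 2 and 4. Of 12 tested members, 6 were higher and 0 lower at an unadjusted p under 0.05 (median 0.81), and 3 were higher without LPS replicate 4 or PBS replicate 4. Ccr2, Ly6c2, Folr2 and Lyve1 were not analysed here. The sort required Siglec-F, which these cells largely lack, but how completely it removed them cannot be read from these libraries. The part of such cells in the values of the C1q genes and Pf4 was not tested.

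Lysosomal genes and genes of lipid-associated macrophages had higher values as well. Of 48 tested lysosomal genes 39 had positive values, 7 were higher and 0 lower at an unadjusted p under 0.05, and the median was 0.44 beside 0.11. Together they took 6.54, 7.93, 10.0 and 7.62% of UMIs in LPS libraries, against 3.11, 5.06, 6.11 and 4.94% in PBS libraries. Every LPS library had a larger share than every PBS library. The summed markers of macrophages and leukocytes in general were also at a larger share in most LPS libraries, with 6.50, 7.15, 9.75 and 7.67% of UMIs in LPS libraries against 3.28, 5.68, 6.80 and 5.43% in PBS libraries, where PBS replicate 3 lay within the LPS range. The genes Ctsd, Ctss and Cd68 stand on both lists. Ctsd alone took 3.85% of UMIs in LPS replicate 4, a large part of both sums in that library. The sums therefore do not show a shift of the whole list, and the 2 sums are not independent. Of 12 tested members of the macrophage and leukocyte list 4 were higher at an unadjusted p under 0.05, and 0 without PBS replicate 1. The part of the macrophage content of the libraries in the lysosomal values was not tested. Cd63, a tetraspanin of late endosomes, had 921, 1686, 613 and 1590 CPM in LPS libraries, against 0, 214, 511 and 535 CPM in PBS libraries (1.87, SE 0.49, adjusted p = 0.0973), without overlap. Psap, the precursor of the saposins that help degrade sphingolipids, was at 1.44 (adjusted p = 0.281), the protease legumain (Lgmn) at 1.20 (adjusted p = 0.534), and the cathepsins Ctsh and Ctss at 1.20 and 0.91. Without PBS replicate 1 the median was 0.34 and 5 lysosomal genes were higher, and without PBS replicate 4 it was 4 genes.

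Of 27 tested genes of lipid-associated macrophages, a state described in fat-laden tissue, Mmp14 rose and 8 including it were higher at an unadjusted p under 0.05 (median 0.46). Trem2, the lipid-sensing receptor that defines this state, had 139, 293, 72.1 and 557 CPM in LPS libraries, against 0, 115, 102 and 75.8 CPM in PBS libraries. LPS replicate 3 lay below 3 of the PBS libraries, and the value was 1.72 (SE 0.53, adjusted p = 0.256), or 1.12 (adjusted p = 0.939) without LPS replicate 4. The calcium-binding protein S100a6 was at 1.56 (adjusted p = 0.230) and apolipoprotein E (Apoe) at 1.23 (adjusted p = 0.534), with LPS replicates 2 and 4 the highest for both. Without PBS replicate 1 the median was 0.30 and 6 members were higher. In lipid handling under PPAR-gamma, 2 of 37 genes were higher and 3 lower (median 0.34), and 1 was higher without LPS replicate 4. Dgat1, which makes triglycerides, was at 1.12 (adjusted p = 0.534) without overlap, and Cidec, a lipid droplet protein of AMs, at -1.38 (adjusted p = 0.417). Pparg, the transcription factor that sets AM identity, was at 0.61 (adjusted p = 1.00), from 36 UMIs in LPS and 10 in PBS libraries.

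Immediate early genes, which are induced within minutes by many stimuli, had lower values in LPS libraries. Of 19 tested, 16 had negative values, 6 were lower and 0 higher at an unadjusted p under 0.05, where 1.83% of all genes were lower, and the median was -0.80. None was called. With 1 library left out 3 to 8 were lower, 3 without PBS replicate 2 (median -0.52) and 8 without PBS replicate 1 (median -0.70), and DESeq2 gave 4. Klf2, a transcription factor that restrains inflammatory gene expression, had 79.2, 78.6, 54.1 and 64.7 CPM in LPS libraries, against 190.4, 395, 153 and 223 CPM in PBS libraries (-1.66, SE 0.47, adjusted p = 0.157). Endothelial cells express Klf2 too, and 7 of 13 tested endothelial markers were lower at an unadjusted p under 0.05 (median -1.44), among them Egfl7. The part of endothelial cells in the values of the immediate early genes was not tested. Fos ranged from 18.0 to 124 CPM in LPS and from 179 to 444 CPM in PBS libraries (-1.36, adjusted p = 0.529). Egr1 ranged from 19.8 to 44.8 CPM in LPS and from 75.8 to 190.4 CPM in PBS libraries (-1.51, adjusted p = 0.534). All 3 genes, of the 19 tested, were lower in every LPS library than in every PBS library, as were 62 (1.62%) of all 3829 tested genes. Klf2 and Egr1 had only 3 UMIs each in PBS replicate 1. Jun, the AP-1 partner of Fos, was at -1.13 (adjusted p = 0.784), with groups that overlapped through LPS replicate 4.

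The tested genes of the LPS receptor, NF-kB and interferon pathways had at most 1 member in either direction at an unadjusted p under 0.05. Many members could not be tested. Of 33, 45 and 58 listed genes in this order, 20, 29 and 37 were in the table. Il6, Il1a, Ifit1 and Mx1 were among those not analysed here. Of 12 tested genes of the receptor pathway 1 was higher (median 0.39), of 13 NF-kB and cytokine genes 1 was higher (0.26), and of 22 interferon-stimulated genes 1 was higher and 1 lower (0.38). With 1 library left out each of these counts lay between 0 and 2. Irak2, a kinase-like adaptor downstream of TLR4, had 129, 143, 120.1 and 132 CPM in LPS libraries, against 127, 49.3, 25.6 and 31.2 CPM in PBS libraries. PBS replicate 1, at 2 UMIs, lay within the LPS range, and the value was 1.87 (adjusted p = 0.246), or 2.12 (adjusted p = 0.148) without that library. The co-receptor Cd14 was at 0.93 (adjusted p = 1.00) and the inhibitor Nfkbia at 0.81 (adjusted p = 1.00), where LPS replicate 4 alone had 1000.0 CPM. The NF-kB kinase Ikbke was at 1.90 (adjusted p = 0.779) from 46 UMIs in LPS and 5 in PBS libraries, and its value was 3.63 without PBS replicate 3 and 1.28 without PBS replicate 4. The interferon-stimulated genes Ifi27l2a and Ifitm3 were at 1.24 and -1.61 (adjusted p = 0.823 and 0.949), and Ifitm3 was at -0.93 without PBS replicate 1.

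In antigen presentation, 15 of 18 class I genes had positive values, and 3 were higher and 0 lower at an unadjusted p under 0.05 (median 0.51), led by the non-classical H2-T23 at 1.32 (adjusted p = 0.534), whose family members can share reads. The count was 1 without LPS replicate 4 or PBS replicate 2 and 5 without LPS replicate 1. Of 8 class II genes 1, the invariant chain protease Ctss, was higher (median 0.19), and 0 without LPS replicate 4 or PBS replicate 1, 2 or 4. The immune checkpoint ligand Cd274 (PD-L1) was at 0.69 (SE 0.58, adjusted p = 1.00), with 29.7, 57.2, 60.1 and 152 CPM in LPS libraries against 0, 32.9, 42.6 and 84.7 CPM in PBS libraries. These groups overlapped. The cell cycle inhibitor Cdkn1a (p21) was at 0.36 (SE 0.45) and the anti-apoptotic Bcl2l1 at 0.18 (SE 0.40), both with an adjusted p of 1.00. Cytosolic ribosomal proteins (1 of 69 higher, 0 to 4 with 1 library left out, median 0.23) and oxidative phosphorylation genes (0 of 63 in either direction, median 0.19) lay near the median of all genes.

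Matrix genes had 4 of 16 members higher at an unadjusted p under 0.05 (median 0.52), Mmp14 being the called one, and 1 without LPS replicate 4 or PBS replicate 4. Adam8, a sheddase of leukocytes, was at 1.99 (adjusted p = 0.567) and the metalloprotease inhibitor Timp1 at 2.11 (adjusted p = 0.771), from 42 UMIs in LPS and 4 in PBS libraries. Of 7 tested genes of BMP and TGF-beta signalling 2 were lower. Id1, a target of BMP signals, had 29.7, 21.4, 0 and 24.9 CPM in LPS libraries, against 63.5, 115, 102 and 71.3 CPM in PBS libraries, without overlap (-2.11, SE 0.65, adjusted p = 0.256). Acvrl1, the receptor ALK1, was at 100.5 ± 38.8 CPM in LPS and 291 ± 72.3 CPM in PBS libraries (SD, n = 4 each), also without overlap (-1.32, adjusted p = 0.389). Acvrl1 is an endothelial marker too, and of the 13 tested genes of that list 7 were lower at an unadjusted p under 0.05 (median -1.44). The part of endothelial cells in its value was not tested.

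AM identity genes had a median of 0.15, beside 0.11 for all genes. This median became -0.00 with library totals and -0.18 without LPS replicate 4. Of 27 tested, 17 had positive and 10 negative values. At an unadjusted p under 0.05, 3 (11.1%) were lower and 0 higher, where 1.83% of all genes were lower and 3.21% higher. With 1 library left out 2 to 3 were lower and 0 to 2 higher. Marco, a scavenger receptor for bacteria and particles, had 228, 400.1, 396 and 321 CPM in LPS libraries, against 635, 987, 980.0 and 1618 CPM in PBS libraries. Every LPS library was lower than every PBS library (-1.49, SE 0.41, adjusted p = 0.148). Itgax, which encodes CD11c, was at 1.06 (SE 0.54, adjusted p = 1.00), and Fabp1 at -1.50 (adjusted p = 0.821). Ear1, an eosinophil-associated ribonuclease of AMs from a family whose members can share reads, was at -0.01 (SE 0.63), and Chil3 at 0.10 (SE 0.47).

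**Figure D3:**
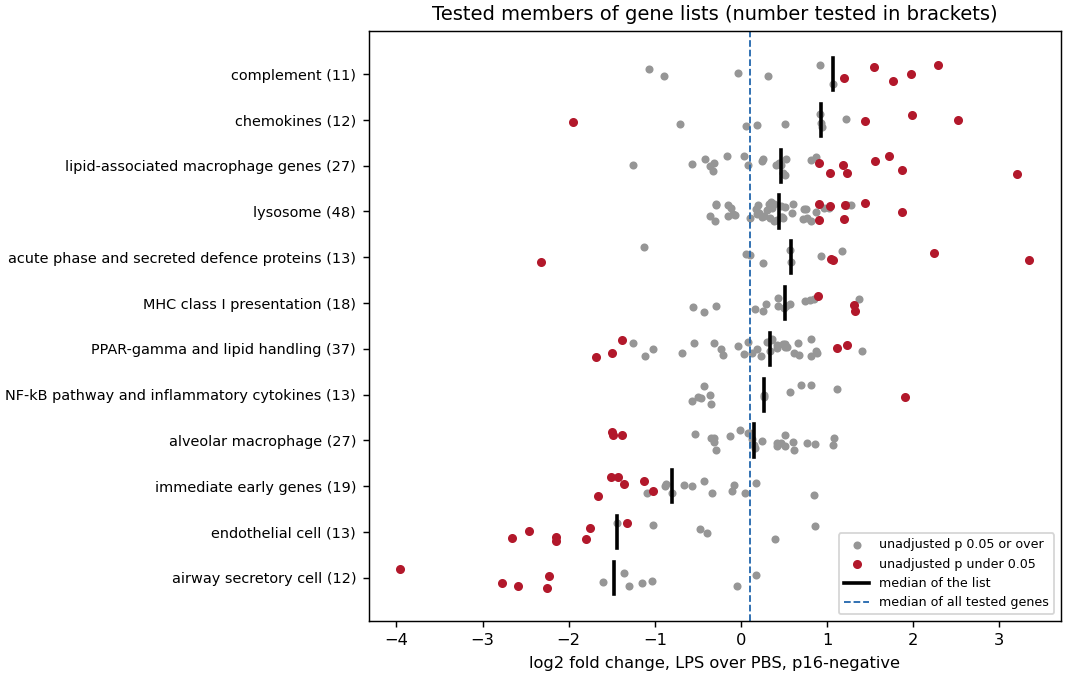
Log2 fold change of LPS over PBS in p16-negative AMs for the tested members of 12 gene lists, 1 point per gene (red, unadjusted p under 0.05), with the median of each list as a black bar and the median of all tested genes as a dashed line at 0.11. The list medians run from 1.06 for complement to -1.48 for airway secretory genes.

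Genes of other lung cells were lower in LPS libraries in places, and their level moved with single libraries. Of 29 endothelial markers, 23 were in the table, all with at least 1 UMI, and their sum was 0.353 to 0.595% of UMIs in LPS libraries and 0.450 to 0.819% in PBS libraries. The list holds Car4, which AMs also express. Of 13 tested members Egfl7 fell, and 7 including it were lower at an unadjusted p under 0.05 (median -1.44, and -1.46 without PBS replicate 1). Cldn5, the tight junction protein of endothelium, had 258, 386, 372 and 57.2 CPM in LPS libraries, against 2539, 2269, 375 and 651 CPM in PBS libraries, where PBS replicate 3 lay within the LPS range (-2.15, adjusted p = 0.102). Gpihbp1, which anchors lipoprotein lipase on capillaries, was at -2.66 (adjusted p = 0.157), or -1.88 without PBS replicate 1, and Ramp2, a receptor partner for adrenomedullin, at -2.46 (adjusted p = 0.256). The sort required CD45, which endothelial cells lack. Markers of airway secretory cells, which lack CD45 too, took between 0.0538% (LPS replicate 4) and 18.5% (PBS replicate 1) of UMIs in these libraries. The part of endothelial cells in the value of Egfl7 was not tested.

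Secretory airway genes depended on PBS replicate 1. Their sum was 1.16, 0.406, 0.0973 and 0.0538% of UMIs in LPS libraries, against 18.5, 1.71, 0.113 and 0.381% in PBS libraries. The groups overlapped widely. Of 12 tested members 5 were lower at an unadjusted p under 0.05 (median -1.48), and without PBS replicate 1 it was 0 of 11 (median -0.18). The count was 8 of 10 without LPS replicate 1, 9 of 12 without PBS replicate 3 or 4, and 3 of 12 without LPS replicate 4. The club cell oxidase Cyp2f2 was at -2.77 with and -0.49 without this library, and the secretoglobins Scgb3a2 and Scgb3a1 at -2.59 and -2.25 with it and -0.85 and -0.75 without it. Alveolar type II genes took 0.565 to 2.83% of UMIs in LPS libraries and 0.859 to 3.20% in PBS libraries, with 0 of 14 members at an unadjusted p under 0.05 in either direction (median 0.18). Without LPS replicate 1, which held the largest share, 6 of 12 were lower (median -1.25). Neutrophil genes took 0.0565 to 0.147% of UMIs in LPS and 0.0588 to 0.152% in PBS libraries and Lcn2 is also on that list.

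**Figure D4:**
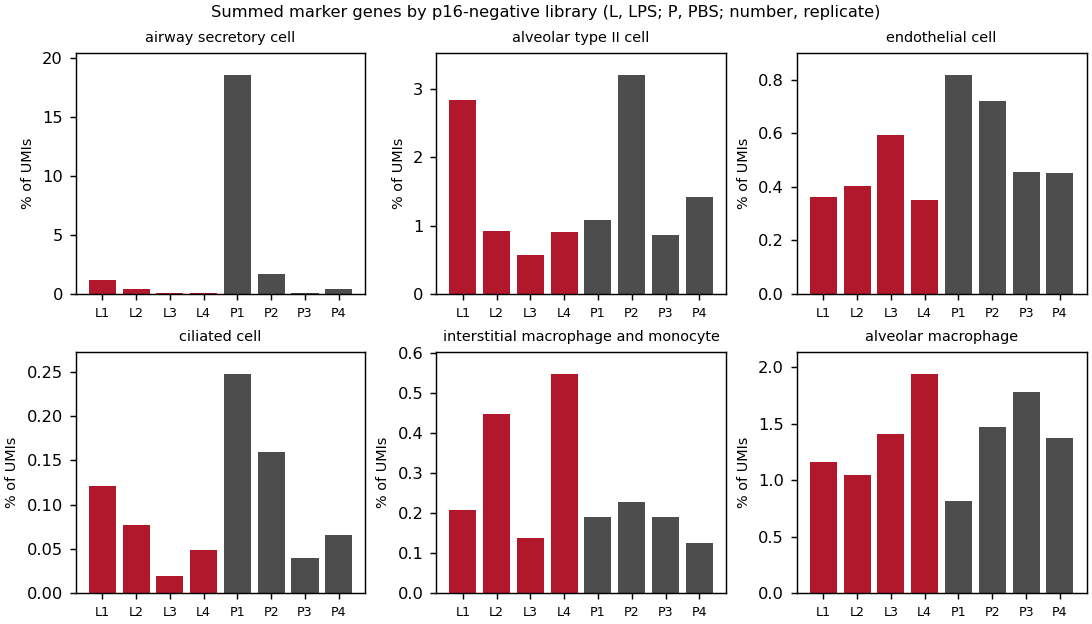
Share of UMIs (%) taken by the summed markers of 6 cell types in each LPS (red, L1 to L4) and PBS (grey, P1 to P4) p16-negative library, with a separate vertical axis per panel. Airway secretory genes reach 18.5% in PBS replicate 1, and interstitial macrophage and monocyte genes reach 0.547% in LPS replicate 4.

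Whether the LPS effect differed between p16-negative and p16-positive AMs was tested as an interaction over all 16 libraries and 6516 genes. The difference was called for 0 genes (0%) with edgeR, where 101 (1.55%) had an unadjusted p under 0.05, and for 0 genes with DESeq2 (41 at an unadjusted p under 0.05) and voom (182). In this joint fit LPS against PBS gave 1 called gene in the p16-negative fraction, Mmp14 (0.0153%), and 3 in the p16-positive fraction (0.046%). A missed threshold does not show that the effects are equal, so intervals are given. This fit takes the 16 libraries as independent. The labels number the samples alike in both fractions, and no source used here says whether libraries that share a number come from the same animals. PBS replicate 1 was the shallowest library in both fractions, and Scgb1a1 was its most abundant gene in both. The p16-negative library held 15755 UMIs, of which Scgb1a1 took 15.2%, and its p16-positive counterpart held 13861, of which it took 22.3%.

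For the called genes the effects in both fractions had the same sign. Saa3 was at 3.45 in p16-negative and 3.47 in p16-positive AMs, a difference (p16-positive minus p16-negative) of 0.01 with a 95% interval of -2.34 to 2.37. Stac2 was at 2.55 and 3.12 in the same order (0.57, -0.96 to 2.11), and it passed the threshold in the p16-positive fraction (adjusted p = 0.0227). Mmp14 was at 3.24 in p16-negative and 2.21 in p16-positive AMs (-1.03, -2.61 to 0.54). Gpx3 was at -2.64 and -2.68 (-0.04, -2.23 to 2.14) and Egfl7 at -2.02 and -2.27 (-0.25, -1.89 to 1.39). With the same-numbered libraries of both fractions as a block, an alternative chosen after seeing the data, the intervals were narrower, at -1.12 to 1.20 for Saa3, -0.39 to 1.70 for Stac2, -2.17 to 0.06 for Mmp14, -1.78 to 0.22 for Gpx3 and -1.79 to 0.12 for Egfl7. In both fits differences of over 1 on the log2 scale remain possible for each of these 5 genes.

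Among the named genes Palm had the lowest p for the difference. It was at 2.55 in p16-negative and -0.43 in p16-positive AMs, a difference of -2.98 (-4.59 to -1.36) with an unadjusted p of 0.00095 and an adjusted p of 1.00 in edgeR. Its level was 131 ± 49.4 CPM in LPS p16-negative and 18.3 ± 13.6 CPM in PBS p16-negative libraries, against 108 ± 32.4 CPM in LPS p16-positive and 149 ± 115 CPM in PBS p16-positive libraries (SD, n = 4 each). The low group is thus the PBS p16-negative one, with 11 UMIs of Palm in 4 libraries. Trp53i11 was at -2.80 in p16-negative and -0.85 in p16-positive AMs (difference 1.95, -0.01 to 3.91), while Fam20c (-2.19, -4.67 to 0.28) and Vsig8 (-2.71, -5.51 to 0.09) had smaller positive values in the p16-positive fraction. Retnla was at -2.22 in p16-negative and 0.79 in p16-positive AMs (3.00, 0.21 to 5.80, unadjusted p = 0.0427). None of these differences passed the threshold in this fit. Under the block of both fractions the difference of Palm was -3.05 (-4.33 to -1.77, adjusted p = 0.0231 in edgeR).

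**Figure D5:**
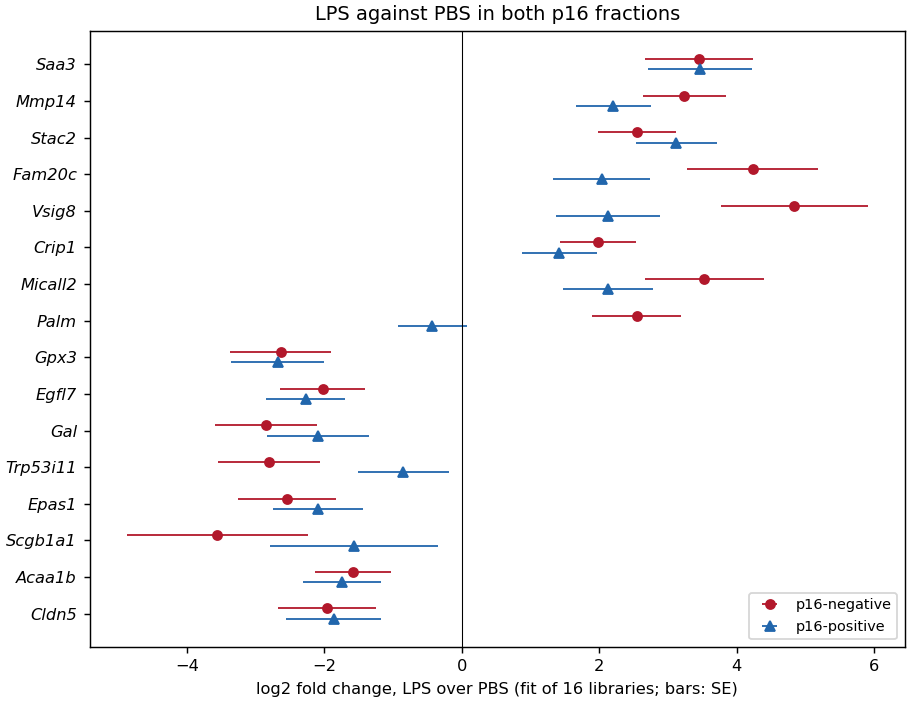
Log2 fold change of LPS over PBS with its SE (horizontal bars) in p16-negative (red circles) and p16-positive (blue triangles) AMs, from the fit of 16 libraries. The 16 genes are the called genes of the p16-negative comparison and those that filled each direction to 8 by lowest p. Signs are shared for all of them except Palm, at 2.55 and -0.43.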

How the data were processed

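Mouse alveolar macrophages were profiled by bulk MARS-seq, which sequences transcript 3′ ends, after intracellular p16 staining and sorting (INs-seq). Per the labels, uniquely mapped reads at 3′ ends of RefSeq genes on mm10 were counted with UTAP (no source used here gives its version). The authors deposited UMI counts per gene and library, which were the input here. Their deposited normalized signal (counts divided by a DESeq2 size factor per library) and deposited regularised log2 values were not used, nor were the authors' fold changes and p-values between groups.

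Genes with at least 30 UMIs over the 8 p16-negative libraries entered edgeR 4.0.16 (R 4.3.3; TMM factors, quasi-likelihood F test), and p-values were adjusted after Benjamini and Hochberg, with a threshold of 0.05. The SE was derived from the F statistic. The difference between p16 fractions came from group means of all 16 libraries. CPM are relative to the total of the library, and the totals limit precision as given in the text. Intervals and limits of counts cover counting error only. The labels call the replicates biological, but p-values measure only the spread between these libraries. Replicates of a group differed by a chi-square per degree of freedom of 3.91 to 15.4 over 12 pairs, so none looked like a duplicate. Scripts were tested on simulated data.

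The text names the genes past the threshold (the 12 largest in each direction with at least 20 CPM, filled to 8 by lowest p), 15 preset genes and up to 4 members of each of 27 pathway and 18 marker lists with the lowest p. Genes and lists were chosen with earlier results of these data known. Symbols of 3817 of 3829 tested genes matched RefSeq on GRCm38.p6, the build of mm10. Alternatives were other scalings, filters, tools (DESeq2 1.42.0, voom in limma 3.58.1), samples and a replicate block.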

Additional observations from a re-analysis of the deposited data

Results flagged for a closer look

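In 174 groups of 4 libraries (the named genes and marker sums in each treatment) a library far from the other 3 was sought. Such a library was found in 18 groups (10.3%). A chance rate of about 1 in 20 would hold for normally distributed values only. CPM of sparse genes are not so distributed, and groups share genes, so no excess over chance is read from this share. PBS replicate 1 was the library apart for Scgb1a1 (152500 CPM), Cyp2f2 (4951 CPM), Epas1 (2539 CPM), Fos (444 CPM) and Timp1 (63.5 CPM, from 1 UMI), and for the sums of secretory airway markers (18.5% of UMIs) and of mast cell and basophil markers (0.0444%). It held 15755 UMIs. Without it the log2 fold change of Fos was -1.14 (-1.36 with it) and that of Timp1 was 2.54 (2.11 with it), and the values of Scgb1a1, Cyp2f2 and Epas1 without it stand in the text.

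LPS replicate 4, the deepest library, was apart for Saa3 (2643 CPM), Ctss (2476 CPM), Nfkbia (1000.0 CPM) and Ikbke (89.6 CPM). LPS replicate 1 was apart for Acvrl1 (159 CPM) and for the sums of alveolar type II (2.83% of UMIs) and type I markers (0.109%). The remaining ones were values of genes with few UMIs in PBS libraries, namely Vsig8 in replicate 2 (16.4 CPM), Ifi27l2a in replicate 2 (32.9 CPM, the lowest of its group), Fam20c in replicate 4 (8.92 CPM) and Ikbke in replicate 3 (34.1 CPM). No cause was tested for any of these values.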

How the results depend on the processing

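The number of called genes depended strongly on the fit. Against 7 (5 higher, 2 lower), upper-quartile scaling and library totals each gave 3 higher and 2 lower, voom gave 3 (3 higher, 0 lower), the robust edgeR fit 15 (12 higher, 3 lower), no low-count filter 25 (17 higher, 8 lower; all 7 genes among them), filterByExpr 1 (1 higher, 0 lower; 1864 genes tested) and all 16 libraries 1 (1 higher, 0 lower). Thinning 7 libraries to equal depth, without PBS replicate 1, gave 0 (0 higher, 0 lower; 100 of 2026 at an unadjusted p under 0.05), and leaving out both PBS replicate 1 libraries and LPS p16-positive replicate 2, chosen after seeing the data, gave 1 (1 higher, 0 lower). DESeq2 called 6, of which 4 were among the 7. Leaving out 1 library gave 0 (without PBS replicate 1) to 42 calls (without LPS replicate 1), with 0 to 21 higher and 0 to 21 lower. Without LPS replicate 4 there were 3, without PBS replicate 3 there were 16 and without PBS replicate 4 there were 12. The cause was not tested.

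Under the replicate block there were 30 calls (15 higher, 15 lower), including all 7 genes. Same-numbered LPS and PBS libraries deviated together with correlations of 0.217, 0.022, 0.0509 and 0.0651, so the numbers were not taken to pair the libraries. The difference between p16 fractions was called for 0 genes under every alternative run except a replicate block of both fractions within a treatment, chosen after seeing the data, which called 2, both with a lower LPS fold change in p16-positive AMs, Palm and Tpt1 (-4.50, adjusted p = 0.0494; named after its values were seen). Same-numbered libraries of the 2 fractions deviated together with correlations of -6.25e-05 to 0.61 after LPS and 0.146 to 0.345 after PBS, with 7 of 8 over 0.1 and LPS replicate 1 at about 0. The fit of independent libraries was kept because LPS replicate 1 did not exceed a cut-off of 0.1. Most pairs deviated together, the calls differ between the fits, and the choice between them rests on this cut-off.

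Signs turned for 3 of the 68 genes whose single values were followed. Pparg, at 0.61, was at -0.10 with voom. Ear1 was at 0.13 without a filter, 0.058 with all 16 libraries, 0.12 under the replicate block and at -0.42 to 0.60 with 1 library left out. Chil3 was at -0.012 with upper-quartile scaling, -0.0039 with library totals, -0.060 with voom, -0.016 with filterByExpr, -0.25 after thinning and at -0.28 to 0.50 with 1 library left out. Of 1293 values of single genes under alternatives, 1139 kept direction and side of the threshold, 57 lost and 82 gained a call, and 15 changed sign.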
